A study of Mus musculus with 6 samples.

Results

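The genes described here encode the steps of glycolysis, the pentose phosphate route and the oxygen-sensing HIF pathway. They were measured in cells that the study names alveolar macrophages, the phagocytes that live in the airspaces of the lung. The 35 genes are textbook members of these pathways that were taken from the deposited expression table by their gene symbols. They comprise 22 genes of glycolysis with its carriers and regulators, 7 of the pentose phosphate route and 6 of the HIF pathway, out of 15824 genes in the table. All 35 were found and all 35 passed the filter on low counts, which kept 11817 genes.

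Macrophages were sorted by flow cytometry from lungs of mice 8 weeks old, and polyA-selected RNA was sequenced in 3 wild-type (WT) and 3 Men1 knockout (KO) libraries. Men1 encodes menin, a scaffold protein of histone methyltransferase complexes, and the study compared both genotypes to look for genes that depend on it. Strain, sex, the Men1 allele and any Cre driver are not given in the sources used. Whether libraries of 1 group stem from separate mice is not in the labels, so a p-value here covers just the variation among these libraries, and that may be technical.

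Glycolysis splits a glucose molecule into pyruvate in the cytosol, and most of the pyruvate is then either reduced to lactate and exported or oxidised in mitochondria. The pentose phosphate route branches off after the first step, and its oxidative arm makes NADPH, which phagocytes use both for the oxidative burst and for defence against oxidants, while its nonoxidative arm makes ribose and returns carbon to glycolysis. When oxygen is short, the HIF alpha proteins escape hydroxylation by the EGLN enzymes and destruction by VHL, and they then switch on many glycolytic genes.

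Total counts lay between 19955242 and 20151990 per library. Men1 was lower in every KO library, with counts of 639, 594 and 603 in WT libraries 1 to 3 and 150, 149 and 165 in KO libraries 1 to 3. Its log2 fold change was -1.93 (SE 0.0684, adjusted p = 7.24e-24). Levels are given as CPM, which are counts scaled to a common library size, or as TPM, which also divides by transcript length and so allows genes to be compared with each other. The 4 Y-linked genes Eif2s3y, Ddx3y, Kdm5d and Uty had 283 counts or more in every WT library but 2 or fewer in every KO library, so the sex of the source animals cannot be told apart from the genotype. Of 10 alveolar macrophage markers in the table, 6 were tested, with 3 higher and 3 lower. Marco (155 TPM in WT and 931 TPM in KO), Chil3 (2.01-fold) and Trim29 (39 counts or fewer) were higher, while Atp6v0d2 (1.95-fold), Pparg (1.45-fold) and Siglecf (33 to 47 counts in WT and 23 to 29 in KO) were lower. The other 4, Fabp1, Plet1, Ear1 and Ear2, had 4 counts or fewer in every library. Siglecf was also near the floor in both groups (1.35 TPM in WT and 0.80 TPM in KO). Marco, Atp6v0d2 (78.4 TPM in WT) and Pparg (17.1 TPM in WT) were not. The general macrophage markers Adgre1 and Itgam were at 647 and 438 TPM in WT. The name alveolar macrophage is thus that of the study, and only part of its markers bear it out. Of 8 general macrophage markers 6 were higher and 0 lower, with a median log2 fold change of 0.51. The summed level of 9 fibroblast markers was 44.5 to 45.9 TPM in WT and 4.68 to 5.02 TPM in KO, with 9 of 9 lower. That of 10 proliferation markers was 432 to 437 TPM in WT and 164 to 166 TPM in KO, with 10 of 10 lower. The neutrophil markers summed to 675 to 709 TPM in WT and 1150 to 1195 TPM in KO, almost all of it S100a8. Of the 4 tested, S100a8 (1.87-fold), S100a9 (3.19-fold) and Ngp (5.54-fold, at 21 counts or fewer) were higher and Mpo (17 counts or fewer) was lower. Among those not tested, Elane and Retnlg had 2 counts or fewer. Camp had 0 to 4 counts in WT and 7 to 16 in KO, and Cxcr2 had 2 to 5 in WT and 9 to 11 in KO. The part of these shifts in the results that follow was not tested, and in bulk RNA fewer cells of a type and less RNA per cell cannot be told apart.

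By read counts, most of the 35 genes rose slightly in KO and a few changed more. The sugar carrier gene Slc2a6 (1.93-fold), the aldolase gene Aldoc (1.65-fold) and the NADPH-producing enzyme gene G6pdx (1.51-fold) were the 3 that rose by at least 1.5-fold. The oxygen sensor gene Egln3 was the 1 gene that fell by that much (2.40-fold lower). Hif1a, which encodes the oxygen-regulated HIF alpha subunit, fell 1.27-fold.

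In edgeR's quasi-likelihood test, with p-values adjusted by Benjamini-Hochberg over all tested genes, 22 of the 35 genes were higher in KO (62.9%) and 8 were lower (22.9%). Among all tested genes, 34.4% were higher and 34.9% lower. The remaining 5 genes, Hk1, Pfkfb3, Rpia, Egln1 and Bnip3, did not pass the test. The median log2 fold change was 0.11 over the 35 genes and 0.0014 over all tested genes. Without regard to direction, 30 of the 35 passed, beside 69.2% of all tested genes, and the median size of a log2 change was 0.23 over the 35 genes and 0.24 over all tested genes. The WT and KO libraries did not overlap in CPM for 30 of the 35, beside 71.2% of all tested genes. Of all tested genes, 8.40% were higher and 9.39% lower by at least 1.5-fold, against 3 and 1 of the 35. The spread between libraries of a group was very low (an estimated biological coefficient of variation of 1.66%), so small changes passed the test. With an assumed coefficient of variation of 0.1, 14 of the 35 genes were higher and 2 lower, beside 18.4% and 18.8% of all tested genes. The genes that no longer passed were Slc2a1, Slc2a3, Hk2, Hk3, Pfkp, Gapdh, Pgk1, Pgam1, Eno1, Pkm, Ldha, Rpe, Taldo1 and Vhl.

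The direction of the small changes depended on the scale. On log2(TPM + 1), where the median of all tested genes was shifted by -0.12, 16 of the 35 genes were higher and 16 lower in KO (limma), beside 20.8% and 48.9% of all tested genes. When each library was centred on its median, 21 were higher and 7 lower, beside 36.5% and 29.7%. Hk2, Hk3, Gapdh and Pgk1 were higher by counts and lower by uncentred TPM. Ldha and Taldo1 were higher by counts and had differences below 0 on uncentred TPM that did not pass (adjusted p = 0.144 and 0.125, limma). For Hk3, Gapdh, Pgk1, Ldha and Taldo1 the sign of the difference thus depended on the scale. On each of these scales the change of any gene is relative to the other genes of the library. Hk2 differed by 0.0046 on the centred scale (adjusted p = 0.904, limma), so its rise by counts was not seen there. Together, the 35 genes took 1.93% to 1.94% of the counts in WT and 2.01% to 2.03% in KO, but their summed level was 17986 ± 74.3 TPM in WT and 17781 ± 106 TPM in KO (SD, n = 3).

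**Figure D1:**
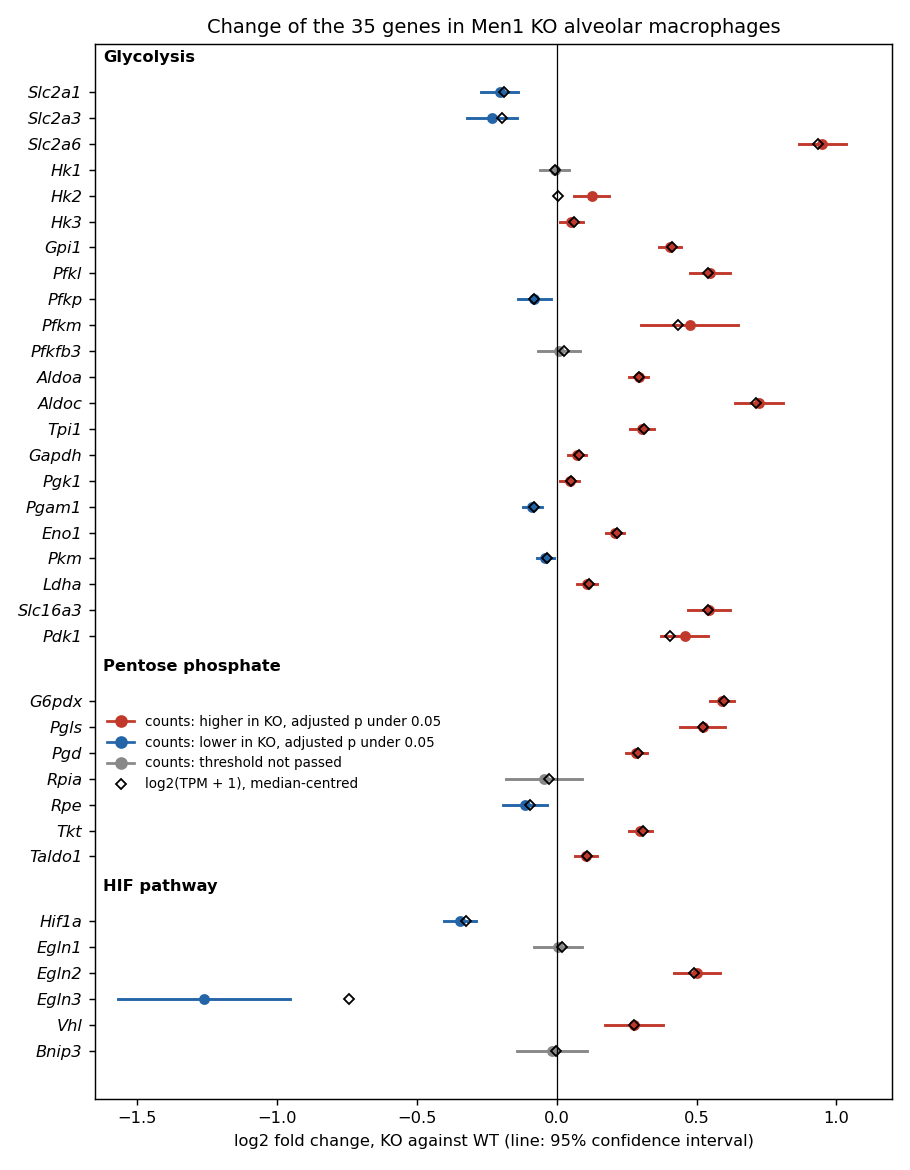
Log2 fold change of each of the 35 genes in KO against WT (x axis), by role (rows). Filled points are the edgeR estimates from counts with their 95% confidence intervals, coloured by the call, and open diamonds are the differences on the median-centred log2(TPM + 1) scale. Egln3 lies farthest to the left at -1.26 and Slc2a6 farthest to the right at 0.95. The median size of a log2 change by counts is 0.23. Hk2, Hk3, Gapdh, Pgk1, Ldha and Taldo1 lie to the right of 0 by counts and on the centred scale, where Hk2 is at 0.0046. On uncentred TPM, which is not drawn, these genes are below 0, and Ldha and Taldo1 did not pass there.

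Glucose enters cells through carriers of the SLC2A family, and the carriers moved in opposite directions. Slc2a6, which encodes a carrier located largely on lysosomal membranes, lies on chromosome 2 from 27021363 to 27028000 (GRCm38.p6, gene ID 227659). Its level was 37.1, 37.2 and 38.7 CPM in WT libraries 1 to 3 and 73.5, 68.9 and 75.8 CPM in KO libraries 1 to 3. Every KO library lay well above every WT library. The mean rose from 37.7 ± 0.881 to 72.7 ± 3.54 CPM (SD, n = 3; log2 fold change 0.95, SE 0.0413, adjusted p = 3.57e-21).

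The principal plasma membrane glucose carrier of macrophages, encoded by Slc2a1 (chromosome 4 from 119108745 to 119137330, gene ID 20525), was lower. Its level was 96.0, 101 and 99.4 CPM in the WT libraries and 84.5, 84.0 and 88.7 CPM in the KO libraries. The groups did not overlap, but the difference was only 1.15-fold (log2 fold change -0.20, SE 0.0322, adjusted p = 9.44e-07). Slc2a3, which encodes a high-affinity glucose carrier, fell from 39.2 ± 0.223 to 33.3 ± 0.366 CPM (log2 fold change -0.23, adjusted p = 1.81e-05).

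Because a share within a family does not depend on the scaling of the library, these 3 carriers were also expressed as shares of their summed TPM. Other carriers of the family were not in that sum. Among them, Slc2a8 went from 5.46 TPM in WT to 10.2 TPM in KO (2.06-fold higher by counts). Slc2a9 went from 6.53 to 7.75 TPM (1.31-fold higher by counts). Slc2a1 made up 58.2% ± 0.654 of the sum of the 3 in WT and 43.6% ± 0.621 in KO (SD, n = 3). Slc2a6 went from 27.7% ± 0.522 to 46.0% ± 0.789. Per length, the leading transcript of the 3 was Slc2a1 in each WT library and Slc2a6 in each KO library. The smallest share was that of Slc2a3, at 14.0% ± 0.206 in WT and 10.3% ± 0.275 in KO.

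Glycolysis begins with the hexokinases, which trap glucose as glucose phosphate. Hk3 was by far the main hexokinase transcript in both groups, at 70.1% ± 0.234 of the summed hexokinase TPM in WT and 71.0% ± 0.408 in KO, and the makeup of this family hardly moved. Its CPM was 462 ± 2.21 in WT and 479 ± 8.79 in KO (log2 fold change 0.052, adjusted p = 0.0212), whereas on log2(TPM + 1) it differed by -0.087. Leaving out KO library 3 (adjusted p = 0.119) or WT library 2 (adjusted p = 0.0646) ended that call. Over all alternatives, the adjusted p for Hk3 ranged from 0.0035 to 0.842.

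Hk1, the hexokinase found in most tissues, was at 178 ± 2.39 CPM in WT, against 177 ± 2.66 CPM in KO. Its log2 difference had a 95% confidence interval of -0.059 to 0.043 by counts, and on log2(TPM + 1) the difference was -0.15. Hk2, the inducible hexokinase that binds mitochondria, was 87.5, 85.7 and 86.5 CPM in WT, against 95.5, 94.3 and 93.4 CPM in KO (log2 fold change 0.12, adjusted p = 5.59e-04). On log2(TPM + 1) it was lower instead, by -0.14, and on the centred scale the difference was 0.0046 (adjusted p = 0.904). With total counts in place of TMM scaling the adjusted p was 0.0520, and it ranged from 0.000244 to 0.904 over all alternatives. The number of reads behind each TPM of Hk2 moved by 0.13 on the log2 scale between the groups. That is outside the 1st to 99th percentile of 8047 genes with at least 5 TPM (-0.061 to 0.087), and Hk2 was the 1 of 33 members at that level outside the range. Which Hk2 transcripts were counted is not given in the sources used.

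Gpi1, the isomerase that turns glucose phosphate into fructose phosphate, stands where glycolysis and the pentose phosphate route part. It was 501, 489.6 and 501 CPM in WT, against 655, 661 and 659 CPM in KO. The KO libraries lay close together and far above the WT libraries, with a mean 1.32-fold higher (log2 fold change 0.40, SE 0.0191, adjusted p = 4.06e-20).

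Phosphofructokinase is the main control point of glycolysis and is built from L, P and M subunits. Pfkl, the L subunit gene (chromosome 10 from 77986947 to 78009807, gene ID 18641), was 63.3, 62.9 and 61.4 CPM in WT, against 86.7, 94.3 and 93.2 CPM in KO. It rose 1.46-fold (log2 fold change 0.55, SE 0.0356, adjusted p = 5.56e-16). Pfkp, the P subunit gene, was 120.0, 117 and 116 CPM in WT, against 110.2, 112 and 111 CPM in KO.

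The groups did not overlap for Pfkp either, and the fall was 1.06-fold (log2 fold change -0.079, adjusted p = 0.0140), which was lost without WT library 1 (adjusted p = 0.0858) and with DESeq2 (adjusted p = 0.0573). Its adjusted p ranged from 5.37e-05 to 0.643 over all alternatives. Pfkm, the M subunit gene, was the least abundant and went from 8.90 ± 0.712 to 12.4 ± 0.965 CPM (1.39-fold, adjusted p = 7.50e-06). In summed TPM of the 3 subunits, Pfkp went from 62.9% ± 0.222 to 52.3% ± 0.940, whereas Pfkl went from 31.2% ± 0.380 to 40.4% ± 0.666. P subunit transcripts remained the most abundant in each library.

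Pfkfb3 encodes a bifunctional enzyme that makes the activator of phosphofructokinase. It was at 68.0 ± 2.29 CPM in WT, against 68.3 ± 2.23 CPM in KO, with a 95% confidence interval of -0.067 to 0.082 for the log2 difference. From the list of other glycolysis genes, its relative Pfkfb4 rose from 28.3 ± 0.986 to 48.1 ± 2.90 CPM (1.70-fold, adjusted p = 1.87e-16).

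The aldolases cleave the resulting hexose into trioses. Aldoc, on chromosome 11 from 78323073 to 78327781 (gene ID 11676), was 44.3, 44.0 and 43.4 CPM in WT, against 69.5, 78.1 and 70.1 CPM in KO. Every KO library exceeded every WT library, with a 1.65-fold rise (log2 fold change 0.72, SE 0.0420, adjusted p = 1.96e-17). Even so, Aldoc was a minor aldolase, at 1.40% ± 0.0149 of the summed aldolase TPM in WT and 1.89% ± 0.102 in KO. The predominant aldolase gene Aldoa rose from 1544 ± 13.1 to 1891 ± 43.6 CPM (log2 fold change 0.29, adjusted p = 3.40e-17).

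**Figure D2:**
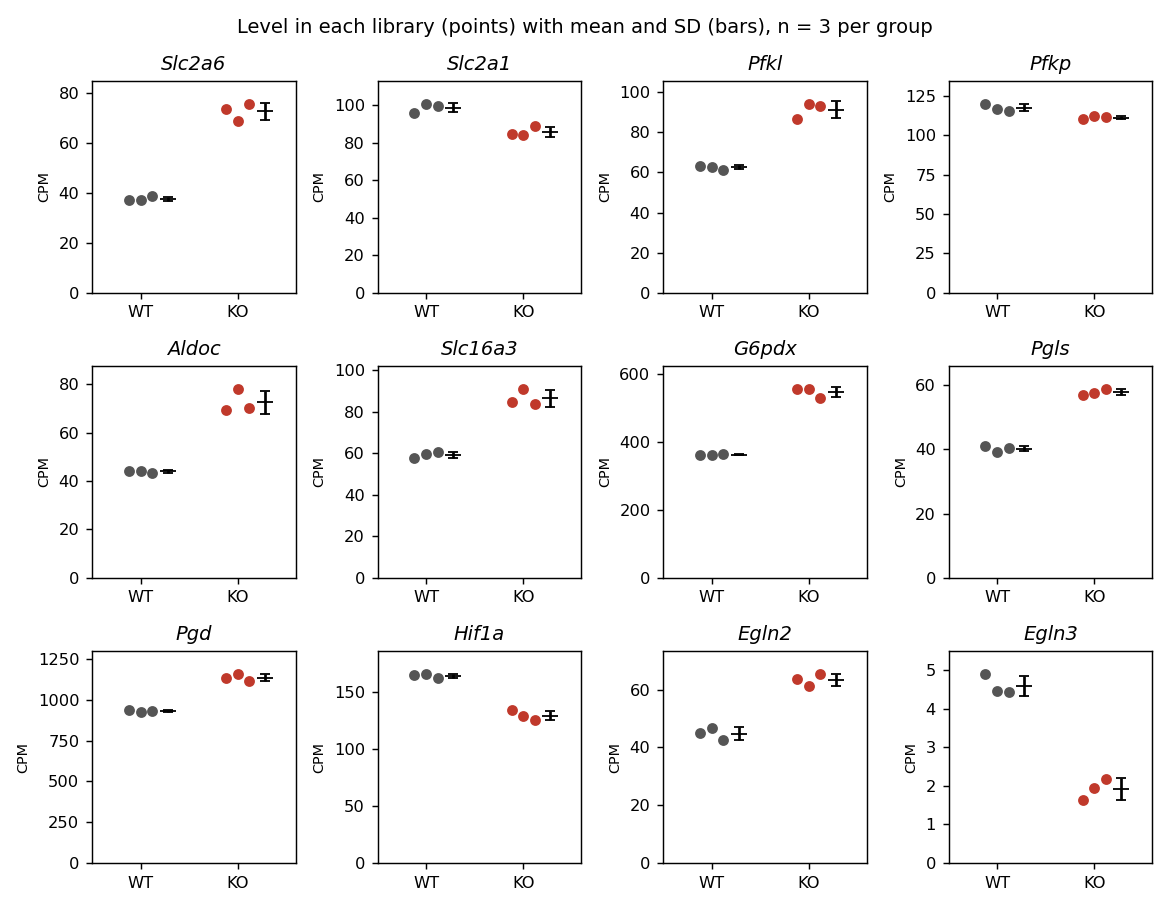
Level in CPM (y axis, from 0) of 12 genes in each WT and KO library (points), with the mean and SD of each group (bars, n = 3). For each gene shown the KO points lie wholly above or wholly below the WT points, with the widest relative gap for Egln3 and a narrow one for Pfkp.

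**Figure D3:**
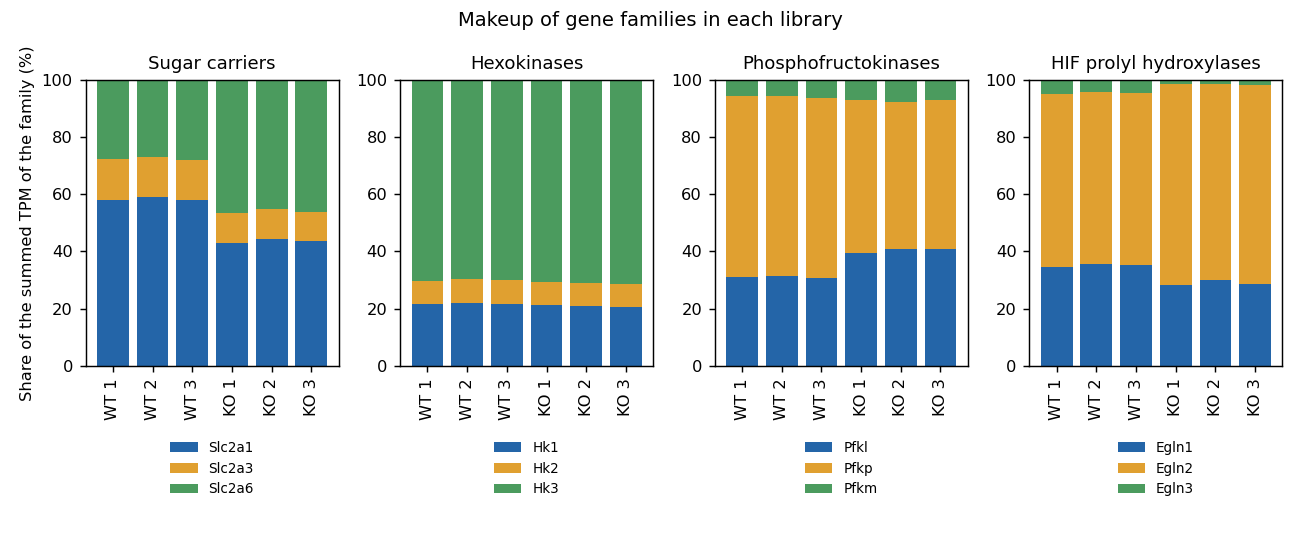
Makeup of gene families in each library (x axis) as the percent of the summed TPM of the family (y axis). Slc2a6 makes up 27.7% of the summed TPM of Slc2a1, Slc2a3 and Slc2a6 in WT and 46.0% in KO on average. Pfkl goes from 31.2% to 40.4% of the phosphofructokinase subunits, and the hexokinases keep nearly the same makeup.

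The lower part of the pathway, from triose phosphate to pyruvate, held most of the abundant transcripts. The highest levels in WT were 4881 TPM for Gapdh, 2874 TPM for Pkm, 1887 TPM for Aldoa and 1394 TPM for Eno1. Of the 6 genes from Tpi1 to Pkm, 4 were higher and 2 lower, with a median log2 fold change of 0.059. Of the 9 genes from the hexokinases to the aldolases, 7 were higher and 1 lower, with a median of 0.29. Of all tested genes, 34.4% were higher and 34.9% lower. The difference between the 2 sets was not tested.

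Tpi1, which interconverts the trioses, rose from 411 ± 3.85 to 508 ± 13.4 CPM (1.24-fold, adjusted p = 2.80e-15). Eno1, the enolase gene, rose from 1400 ± 10.7 to 1619 ± 9.79 CPM (log2 fold change 0.21, adjusted p = 8.04e-14). Eno1 has a near-identical copy, Eno1b, with 145.63 to 223.29 estimated counts per library, and the division of reads between the copies is uncertain. Gapdh, which makes NADH and is often used as a reference gene, had 3700 ± 29.8 CPM in WT, against 3891 ± 66.6 CPM in KO (log2 fold change 0.073, adjusted p = 9.23e-05). On log2(TPM + 1) Gapdh was lower, by -0.069, and with total counts its adjusted p was 0.365 (range over all alternatives 3.99e-06 to 0.668).

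Pgk1, the first ATP-producing enzyme gene of the pathway, had a log2 fold change of 0.046 (adjusted p = 0.0189), which was -0.095 on log2(TPM + 1) and lost its call without KO library 3 (adjusted p = 0.0608, range over all alternatives 0.000818 to 0.797). Pgam1, the mutase gene, fell from 1055 ± 8.12 to 993 ± 8.53 CPM (log2 fold change -0.087, adjusted p = 3.39e-05). Pkm, the pyruvate kinase gene, had a log2 fold change of -0.041 (adjusted p = 0.0146). Its call was lost without KO library 1 (adjusted p = 0.0581), without WT library 3 (adjusted p = 0.104) and without a low-count filter (adjusted p = 0.0585). On the median-centred log2(TPM + 1) scale Pkm differed by -0.033 and did not pass either (adjusted p = 0.104, limma). The adjusted p for Pkm ranged from 2.26e-07 to 0.821 over all alternatives. Without regard to direction, the median size of the log2 change of the 6 genes from Tpi1 to Pkm was 0.080.

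The list covers 3 steps around pyruvate: its reduction by lactate dehydrogenase, export of the lactate, and a brake on pyruvate dehydrogenase. Slc16a3 encodes the exporter that glycolytic cells use to release lactate. Its level was 57.9, 59.4 and 60.6 CPM in WT, against 84.5, 91.0 and 83.7 CPM in KO, so that the groups were far apart. The rise was 1.46-fold (log2 fold change 0.54, SE 0.0367, adjusted p = 1.50e-15). Pdk1, a kinase gene whose product inhibits pyruvate dehydrogenase, was 42.7, 39.6 and 42.7 CPM in WT, against 55.3, 58.1 and 58.2 CPM in KO. It also rose without overlap, by 1.37-fold (log2 fold change 0.46, SE 0.0413, adjusted p = 3.87e-12). Ldha, the main lactate dehydrogenase gene, had 823 ± 4.25 CPM in WT, against 888 ± 11.8 CPM in KO (log2 fold change 0.11, adjusted p = 1.60e-06), and on log2(TPM + 1) it differed by -0.032.

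Other genes around pyruvate came from lists of the same pathways. Of 18 other glycolysis genes that were tested, 8 rose and 8 fell (44.4% each), beside 34.4% and 34.9% of all tested genes. Slc16a1, which encodes a lactate carrier that runs in both directions, was 51.9, 54.9 and 50.9 CPM in WT, against 34.8, 30.9 and 32.1 CPM in KO (1.61-fold lower, adjusted p = 1.09e-15). Ldhb, whose product favours making pyruvate from lactate, rose 1.81-fold from 10.4 ± 0.154 to 18.9 ± 0.200 CPM (adjusted p = 1.74e-13), and Galm, a sugar mutarotase gene, was 1.70-fold lower (adjusted p = 5.46e-13). Of 12 genes for pyruvate entry and oxidation, 1 rose and 6 fell, where 34.4% and 34.9% of all tested genes did. With the assumed coefficient of variation of 0.1, 1 was higher and 1 lower, beside 18.4% and 18.8% of all tested genes. The 1 that rose was Pdk2, another inhibitory kinase gene, from 3.22 ± 0.347 to 7.56 ± 0.477 CPM (2.35-fold, adjusted p = 2.36e-11), while Pdk3 fell (log2 fold change -0.43, adjusted p = 1.15e-05). Pdk3 lies on chromosome X, and the sex of the source animals cannot be told apart from the genotype. Mpc1, a subunit of the mitochondrial pyruvate carrier (log2 fold change -0.22, adjusted p = 1.04e-08), and Dlat, a subunit of pyruvate dehydrogenase (log2 fold change -0.24, adjusted p = 7.17e-08), fell as well. Under that assumption, Mpc1 (adjusted p = 0.148) and Dlat (adjusted p = 0.103) no longer passed.

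All 3 genes of the oxidative arm of the pentose phosphate route rose, where 34.4% of all tested genes did. Their median log2 fold change was 0.52. G6pdx encodes glucose phosphate dehydrogenase, the rate-limiting source of NADPH in this route, and lies on chromosome X from 74409483 to 74428880 (gene ID 14381). It was 362, 361 and 365 CPM in WT, against 556, 555 and 528 CPM in KO. All KO libraries were far above all WT libraries, and the mean rose from 363 ± 1.99 to 546 ± 15.8 CPM (SD, n = 3). The rise was 1.51-fold (log2 fold change 0.59, SE 0.0214, adjusted p = 1.32e-23). G6pdx and Pgk1 were the 2 X-linked genes of the 35, and the library sexes described above differ with genotype. Beside the 0.59 of G6pdx, the log2 fold change of Pgk1 was 0.046.

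Pgls, which opens the lactone ring that the first enzyme forms, was 41.0, 39.3 and 40.5 CPM in WT, against 57.0, 57.5 and 58.8 CPM in KO. Its rise of 1.44-fold (log2 fold change 0.52, SE 0.0397, adjusted p = 4.13e-14) came without overlap. Pgd, the gene of the enzyme that produces the second NADPH of the arm, was 938, 928 and 934 CPM in WT, against 1133, 1160 and 1120 CPM in KO. It rose 1.22-fold (log2 fold change 0.29, SE 0.0177, adjusted p = 1.48e-16). In these steps the 3 genes rose on the TPM scale too, and their summed level was 1076 ± 8.88 TPM in WT and 1278 ± 24.1 TPM in KO.

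Among the 4 genes of the nonoxidative arm, 2 rose, 1 fell and 1 did not pass the test, with a median log2 fold change of 0.029. Of all tested genes, 34.4% rose and 34.9% fell. Tkt, the transketolase gene that links pentoses back to glycolysis, rose from 612 ± 14.8 to 754 ± 10.9 CPM (1.23-fold, adjusted p = 8.12e-16). Taldo1, the transaldolase gene, was the most abundant transcript of the route at 1154 ± 13.8 TPM in WT. Its CPM was 758 ± 7.59 in WT and 814 ± 17.0 in KO (log2 fold change 0.10, adjusted p = 8.72e-06), but its log2(TPM + 1) differed by -0.038.

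Rpe, the pentose epimerase gene, was 58.3 ± 1.07 CPM in WT, against 53.9 ± 2.13 CPM in KO (log2 fold change -0.11, adjusted p = 0.00970). That call was lost without KO library 2 (adjusted p = 0.0556), without KO library 3 (adjusted p = 0.0568) and with DESeq2 (adjusted p = 0.0523), and the adjusted p ranged from 0.000209 to 0.499 over all alternatives. Rpia, the pentose isomerase gene, did not pass, with a 95% confidence interval of -0.18 to 0.089 for the log2 difference.

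Set beside glycolysis, 5 of 7 genes of the pentose phosphate route were higher and 1 lower (median log2 fold change 0.29), against 15 higher and 5 lower of 22 in glycolysis (median 0.12). Among all tested genes, 34.4% were higher and 34.9% lower. On log2(TPM + 1) the numbers were 4 higher and 2 lower in the route, and 10 higher and 11 lower in glycolysis. On that scale 20.8% of all tested genes were higher and 48.9% lower. The summed level of the route was 2588 ± 17.3 TPM in WT and 2788 ± 14.5 TPM in KO, and that of glycolysis 15242 ± 65.2 TPM in WT and 14847 ± 121 TPM in KO. The ratio of the sums was 16.98% ± 0.0903 in WT and 18.8% ± 0.247 in KO (SD, n = 3). On this measure each KO library lay above each WT library. No test was made of a sum over chosen genes.

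Of 6 other genes tied to pentose phosphates, 4 rose and 2 fell, where 34.4% and 34.9% of all tested genes did. H6pd, which runs the oxidative reactions in the endoplasmic reticulum, rose from 114 ± 3.33 to 157 ± 3.54 CPM (1.38-fold, adjusted p = 1.15e-16). Rbks, the ribokinase gene, rose 1.53-fold from a low level of 6.38 ± 0.709 CPM (adjusted p = 7.47e-07). The 2 that fell, Prps2 (log2 fold change -0.25, adjusted p = 2.23e-05) and Prps1 (log2 fold change -0.27, adjusted p = 4.83e-05), encode the synthetases that carry ribose phosphate on to nucleotides, and with the assumed coefficient of variation neither passed (adjusted p = 0.0890 for Prps1 and higher for Prps2). The proliferation markers were lower in KO too, at 164 to 166 TPM beside 432 to 437 TPM in WT, and their part in the fall of both synthetase genes was not tested. Both synthetase genes also lie on chromosome X, and sex cannot be told apart from the genotype in these libraries. Tigar, chosen after its values were seen, encodes a phosphatase that can divert sugar from glycolysis to the pentose phosphate route, and it fell from 29.3 ± 0.188 to 18.9 ± 0.374 CPM (1.55-fold lower, adjusted p = 7.54e-13).

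The HIF pathway genes went in both directions, with 2 higher (33.3%), 2 lower (33.3%) and 2 that did not pass. These shares were near those of all tested genes, at 34.4% higher and 34.9% lower. The median log2 fold change of the HIF pathway genes was -0.0063. Hif1a (chromosome 12 from 73901324 to 73947554, gene ID 15251) was 165, 166 and 163 CPM in WT, against 134, 129 and 125 CPM in KO. Each KO library was below each WT library, and the fall was 1.27-fold (log2 fold change -0.35, SE 0.0276, adjusted p = 1.62e-13). HIF alpha is controlled largely through the stability of the protein, which RNA does not measure.

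Of the 3 oxygen sensor genes, Egln3 and Egln1 are themselves known to be induced by HIF. Egln3 lies on chromosome 12 from 54178981 to 54203874 (gene ID 112407) and had 100, 91 and 91 counts in WT and 32, 38 and 43 counts in KO. In CPM this was 4.91, 4.47 and 4.44 in WT and 1.62, 1.94 and 2.19 in KO. The KO libraries all lay below the lowest WT library, with a 2.40-fold difference (log2 fold change -1.26, SE 0.152, adjusted p = 3.79e-09). Because the level was low, the pseudocount shrank this difference to -0.89 on log2(TPM + 1), and a filter of 5 CPM removed the gene.

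Egln2, another of the sensor genes, was 45.0, 46.8 and 42.6 CPM in WT, against 63.6, 61.1 and 65.4 CPM in KO. It rose 1.42-fold without overlap (log2 fold change 0.50, SE 0.0408, adjusted p = 2.60e-13). Egln1, the principal sensor gene of most tissues, had 47.6 ± 2.30 CPM in WT, against 47.8 ± 1.08 CPM in KO, with a 95% confidence interval of -0.080 to 0.090 for the log2 difference. Of the summed TPM of the 3 sensors, Egln2 thus took 60.3% ± 0.275 in WT and 69.5% ± 0.981 in KO, while Egln3 took 4.62% ± 0.310 and 1.58% ± 0.219.

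Vhl, whose product marks hydroxylated HIF alpha for destruction, was 25.7, 27.4 and 27.5 CPM in WT, against 34.2, 31.0 and 32.7 CPM in KO. It rose 1.21-fold (log2 fold change 0.28, SE 0.0509, adjusted p = 1.12e-05). Bnip3, a classic HIF target that promotes removal of mitochondria, had 21.7 ± 1.88 CPM in WT, against 21.5 ± 0.933 CPM in KO, and the 95% confidence interval of the log2 difference was -0.14 to 0.11.

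Of 12 other regulators of the pathway that were tested, 3 were higher (25%) and 2 lower (16.7%), beside 34.4% and 34.9% of all tested genes. Cul2, the scaffold of the VHL ubiquitin ligase, fell from 56.0 ± 2.39 to 43.7 ± 2.05 CPM (log2 fold change -0.36, adjusted p = 2.80e-09). Epas1, which encodes the other main HIF alpha subunit, also fell, from 6.15 ± 0.762 to 4.94 ± 0.172 CPM (log2 fold change -0.32, adjusted p = 0.0148), a call lost without WT library 3 (adjusted p = 0.145), without KO library 3 (adjusted p = 0.0505) and with DESeq2 (adjusted p = 0.0809). For Epas1 the adjusted p ranged from 0.00428 to 0.152 over all alternatives. Hif3a, an alpha subunit gene that can oppose the others, was higher at a very low level, with 0.816 ± 0.197 CPM in WT, against 1.61 ± 0.133 CPM in KO (log2 fold change 0.98, adjusted p = 5.36e-04). Ep300, a coactivator gene, differed by 0.075 on the log2 scale of counts (adjusted p = 0.0248, range over all alternatives 0.0143 to 0.703) and by -0.059 on log2(TPM + 1), and lost its call without WT library 3 (adjusted p = 0.167) or KO library 1 (adjusted p = 0.0512).

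HIF binds a short core motif in the promoters and enhancers of its targets, so promoter sequence was searched for that core, ACGTG or GCGTG on either strand, in the 250 bases before each RefSeq start. ACGTG is also part of the E-box CACGTG. A window was found for 34 of the 35 genes, and 30 of the 34 held a core (88.2%). The core was also common elsewhere, in 61.2% of 9537 tested genes and 41.5% of all 27025 genes with a window. Counted by window, since a gene can have several, it was in 79.6% of the 49 windows of these genes and 38.6% of all 32851 windows. It was in 19 of 22 genes that were higher, 6 of 7 that were lower and 5 of 5 that did not pass. A match is a string of letters and not a measured binding site.

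Stretches of 60 bases from these windows (RefSeq, GRCm38.p6, written 5′ to 3′ on the strand of the gene, with the core in capitals) are shown for 5 genes, because genes that rose, fell and did not pass all carry it. Those of Slc2a6 and Egln2 stand for genes that rose, those of Slc2a1 and Egln3 for genes that fell, and that of Bnip3 for a gene that did not pass. They lie at chr2:27028029-27028088 (minus strand, Slc2a6), chr7:27166805-27166864 (minus, Egln2), chr4:119108651-119108710 (plus, Slc2a1), chr12:54204065-54204124 (minus, Egln3) and chr7:138909520-138909579 (minus, Bnip3). Each ends upstream of the RefSeq start and of every annotated exon of its gene.
Slc2a6: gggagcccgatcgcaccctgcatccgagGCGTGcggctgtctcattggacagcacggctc
Egln2: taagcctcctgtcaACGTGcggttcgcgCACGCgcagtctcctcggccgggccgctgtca
Slc2a1: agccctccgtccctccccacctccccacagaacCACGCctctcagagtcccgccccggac
Egln3: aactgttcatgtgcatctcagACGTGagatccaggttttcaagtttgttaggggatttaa
Bnip3: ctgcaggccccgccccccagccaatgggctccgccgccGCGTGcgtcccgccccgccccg

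Textbook HIF targets were followed beyond the 35 genes, and they went in both directions. Of the 19 targets among the 35 genes, 11 were higher, 5 lower and 3 did not pass (median log2 fold change 0.073). Of 25 other targets that were tested, 7 were higher, 11 lower and 7 did not pass (median -0.11), so that of all 44 targets 18 were higher (40.9%) and 16 lower (36.4%), with a median of 0.011. These shares stand beside the 34.4% and 34.9% of all tested genes.

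Without regard to direction, the median size of the log2 change was 0.20 for the 19 targets and 0.48 for the 25 others, beside 0.24 over all tested genes. These differences were not tested. By at least 1.5-fold, 1 of the 19 was higher and 1 lower, and 3 of the 25 were higher and 7 lower. Of all tested genes, 8.40% were higher and 9.39% lower by that much. Tfrc, the transferrin receptor gene, rose from 272.5 ± 9.30 to 557 ± 14.2 CPM (2.04-fold, adjusted p = 8.17e-30). Ndrg1, a stress-responsive gene, rose 1.92-fold to 243 ± 1.67 CPM (adjusted p = 1.90e-27). In the opposite direction, Vegfa, the angiogenic growth factor gene, was 26.4, 25.3 and 25.1 CPM in WT, against 12.5, 12.5 and 12.7 CPM in KO (2.04-fold lower, adjusted p = 5.77e-17).

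Loxl2, a collagen-modifying enzyme gene that was chosen after its values were seen, was 4.56, 4.47 and 5.31 CPM in WT, against 0.355, 0.664 and 0.204 CPM in KO. All KO libraries lay far below the WT libraries (log2 fold change -3.53, SE 0.232, adjusted p = 7.00e-16). The fibroblast markers summed to 44.5 to 45.9 TPM in the WT libraries and 4.68 to 5.02 TPM in the KO libraries, and the part of those cells in the fall of Loxl2 was not tested.

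**Figure D4:**
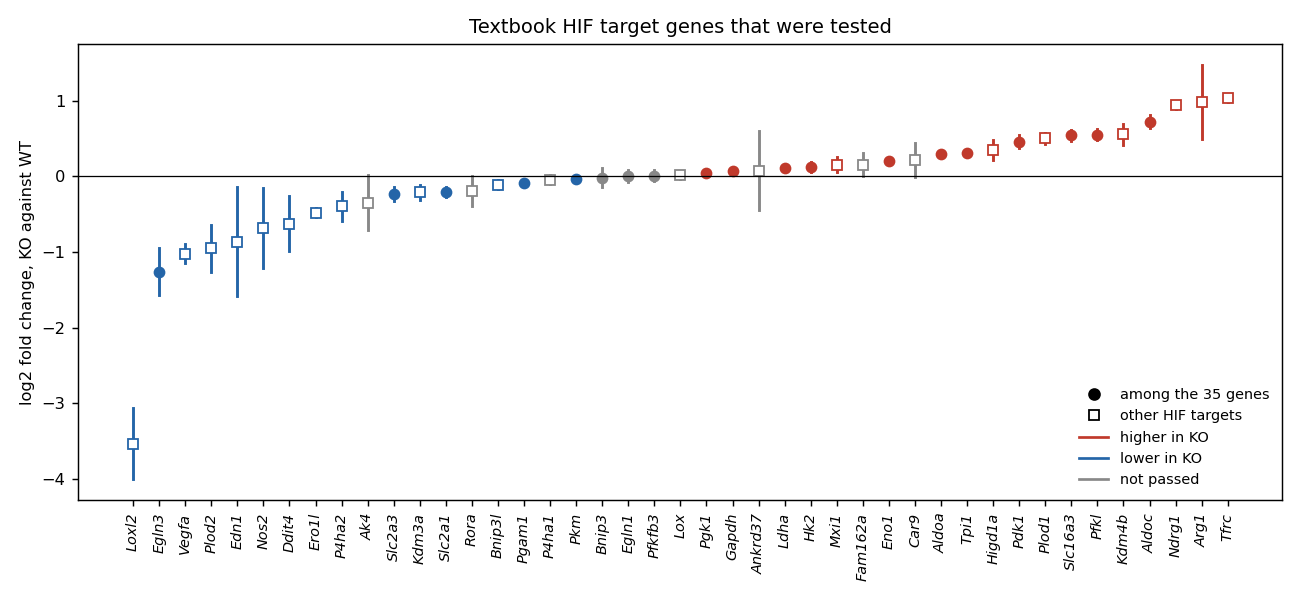
Log2 fold change in KO against WT (y axis, with 95% confidence intervals) of the textbook HIF target genes that were tested (x axis), ordered by value, with 1 of the 44 left out because it is not reported here. Filled circles are the 19 among the 35 genes and open squares the others, coloured by the call. Of the genes drawn, Loxl2 is lowest at -3.53 and Tfrc highest at 1.03. Without regard to direction, the median size of the log2 change over all 44 is 0.30.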

How the data were processed

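RNA of 6 libraries (3 WT, 3 KO) was analysed from 1 table of the authors. The deposited expected counts are estimated read counts per gene. They were not whole for 8.66% to 9.19% of genes (5 of the 35 genes here) and were rounded. The authors also deposited TPM and FPKM columns, named so in the header. Per the submitters' processing notes the tools were HISAT and Bowtie2 and the build GRCm38.p6, without stated roles. No source used here gives the counter, strand use or annotation. A further 14 columns of values were not used.

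KO and WT were compared with edgeR 4.0.16 (filterByExpr, TMM scaling, quasi-likelihood test, group only, Benjamini-Hochberg adjustment, threshold 0.05) in R 4.3.3 over 11817 genes, with 4007 removed. The SE is the log2 fold change divided by the square root of F. CPM use TMM-scaled library sizes. Gene identifiers matched the RefSeq table for 15774 genes, which gave coordinates. Shares are percentages of the summed deposited TPM. The test was checked on simulated counts. Alternatives used other scaling and filters, DESeq2 1.42.0, limma 3.58.1 on log2(TPM + 1), log2(TPM + 0.1) and log2(FPKM + 1), an assumed coefficient of variation of 0.1, no X and Y genes, a threshold of 0.01, a replicate block and each library left out. Python 3.11.15, pandas 2.3.3 and matplotlib 3.10.9 made the summaries and plots.

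The 35 genes and all lists were chosen with earlier results of these data known. Named are Men1, all 35 genes, and up to 4 genes of smallest p from each of 5 further lists (other glycolysis, pyruvate, pentose phosphate, HIF regulators and HIF targets). Of these, 1 HIF target is not reported here, although it is in the counts. Together these lists have 73 tested genes, of which 23 were higher (31.5%) and 29 lower (39.7%), beside 34.4% and 34.9% of all tested genes. Marker lists are given by count and range. Summed levels not given in the results were those of general macrophages (40563 to 42665 TPM in WT, 38677 to 39805 in KO, most of it Lyz2, which did not pass, while 6 of the 8 were higher), endothelium (16.6 to 17.0 and 13.8 to 14.0), dendritic cells (10.7 to 12.2 and 16.9 to 17.9), epithelium (0.94 to 1.09 and 0.29 to 0.46), T and B cells (0.79 to 1.17 and 0.93 to 1.32) and erythroid cells (0.32 to 2.11 and 1.24 to 3.53).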

Additional observations from a re-analysis of the deposited data

How the results depend on the processing

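The cause was not tested for any change given here unless it follows from how the alternative is built. With an assumed coefficient of variation of 0.1, 2180 of all genes were higher and 2226 lower, 14 and 2 of the 35 genes, 9 and 0 in glycolysis, 0 lower in the pentose phosphate route, 1 higher in the HIF pathway, and 15 and 14 in the other lists. Of all tested genes, those higher numbered 2463 on log2(TPM + 1), 2466 on log2(TPM + 0.1) and 2410 on log2(TPM + 1) with no filter. In the same order, 16, 16 and 15 of the 35 genes were lower, and 11, 11 and 11 in glycolysis. In the pentose phosphate route 2 were lower on either filtered TPM scale, and without a filter 1 HIF gene and 15 of the other lists were higher. A threshold of 0.01 left 3 glycolysis genes lower, DESeq2 0 pentose phosphate genes lower (0.0523 for Rpe), and the 5 CPM filter, which removes Egln3, 1 HIF gene lower. On read counts, the KO minus WT difference in share was 0.24 percentage points for Hk3, 0.93 for Aldoc, 16.5 for Slc2a6 and 2.42 for the ratio of pathway sums (0.96, 0.48, 18.3 and 1.80 on TPM). Leaving out 1 library at a time gave 3869 to 3970 genes higher and 3886 to 3965 lower among all tested, 20 to 22 and 7 to 8 of the 35, 13 to 15 and 4 to 5 in glycolysis, and 0 to 1 lower in the pentose phosphate route (0 without KO library 2 or KO library 3).

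The following log2 differences changed sign. On log2(TPM + 1), with or without the filter, they were -0.14 for Hk2, -0.087 for Hk3, -0.12 for Pfkfb3, -0.069 for Gapdh, -0.095 for Pgk1, -0.032 for Ldha, -0.038 for Taldo1, -0.13 for Egln1 and -0.059 for Ep300. On log2(TPM + 0.1) they were -0.15 for Hk2, -0.13 for Pfkfb3, -0.062 for Ep300 and the same for the other 6 genes. With total counts they were -0.0049 for Hk3, -0.050 for Pfkfb3, -0.011 for Pgk1 and -0.052 for Egln1, and on log2(FPKM + 1) -0.063 for Hk2, -0.0056 for Hk3, -0.044 for Pfkfb3, -0.013 for Pgk1 and -0.049 for Egln1. Hk1 was 0.0021 without a low-count filter and Egln1 -0.00053 with the 5 CPM filter. With 1 library left out, Hk1 ranged from -0.015 to 0.0060, Pfkfb3 from -0.016 to 0.036, Rpia from -0.11 to 0.029, Egln1 from -0.021 to 0.045 and Bnip3 from -0.083 to 0.035.

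Replicate numbers were taken as not pairing the libraries, because libraries of the same number deviated together only weakly (correlations of 0.053, 0.028 and 0.030), although every library correlated best with its own number. With the replicate number as a replicate block, 4121 genes were higher and 4200 lower among all tested, and 22 and 8 of the 35, with all 30 calls kept.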
